A study of Rattus norvegicus with 14 samples.

Results

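Cyclic AMP acts in neurons through several kinds of effector, and the genes of the Epac and protein kinase A branches were followed in the dentate gyrus of rats after a spatial learning session. Members were all probe sets of the deposited value table whose single gene symbol in the platform annotation is Rapgef4, Rapgef3, Rap1a, Rap1b, Prkaca, Prkacb, Prkar1a, Prkar1b, Prkar2a or Prkar2b. There were 16 such probe sets for 10 genes, of 15866 probe sets other than controls and 10411 genes. The Epac and Rap1 arm held 5 probe sets for 4 genes, and the protein kinase A arm held 11 probe sets for 6 genes. The gene set was selected on measured values: Rapgef4 was singled out for its learning minus control difference in these arrays. Differences between the groups in these genes are therefore a description, and counts from the fit over all probe sets are given only beside their background.

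The rats were male Long-Evans animals of 3 to 4 months that had learned a standard water maze and, 2 to 3 weeks later, swam 8 trials in a pool at a new site. For the 7 learning rats that pool had orienting cues and a visible platform that stayed put. For the 7 control rats the visible platform moved from trial to trial and there were no informative cues, so both groups swam. A probe swim of 90 s without the platform followed 1 h later, the dentate gyrus was microdissected at once, and RNA of each rat went on 1 array. The comparison asks what differs after learning the place of a platform beyond swimming to one that cannot be learned, and no array of rats without swimming was used here. The groups also differed in cues and in whether the platform moved, which cannot be told apart from learning.

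Values are log2 expression per probe set, with array medians between 5.09 and 5.12 and correlations between arrays of 0.995 to 0.998. The labelled tissue was checked by markers of the dentate granule cell: Prox1, which specifies these neurons, averaged 10.26 in control and 10.33 in learning rats, and Calb1, their calcium-binding protein, 10.82 and 10.79. Markers of neighbouring CA1 and CA3 neurons, glia, vessels, meninges and choroid plexus were also detected, and those that moved with the groups are given beside the results.

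Rapgef4 encodes Epac2 and Rapgef3 encodes Epac1, exchange factors that bind cAMP and load the small GTPases Rap1a and Rap1b with GTP. Rap1 acts on adhesion, the cytoskeleton and MAP kinase signalling. Protein kinase A is held inactive by regulatory subunits (Prkar genes), which let go of the catalytic subunits (Prkaca, Prkacb) when cAMP binds. The free kinase phosphorylates channels, receptors and the transcription factor CREB, which binds the cAMP response element in DNA. Both branches have been studied for their parts in hippocampal plasticity and memory.

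The promoters of Rapgef4 and Rap1b are shown because these members differed in opposite directions between the groups, and because a cAMP response element is the site through which CREB acts. Printed are the 250 bases before the RefSeq start in build GRCr8, at chr3:77216797-77217046 on the plus strand for Rapgef4 and at chr7:55342218-55342467 on the minus strand for Rap1b. Capitals mark the response element TGACGTCA or its short form TGACG, searched on both strands. Each full element contains the short form.
Rapgef4: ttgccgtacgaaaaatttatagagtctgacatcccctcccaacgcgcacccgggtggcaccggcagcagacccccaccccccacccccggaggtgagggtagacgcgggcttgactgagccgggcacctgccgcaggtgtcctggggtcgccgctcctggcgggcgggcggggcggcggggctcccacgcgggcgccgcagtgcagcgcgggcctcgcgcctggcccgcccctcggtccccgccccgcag
Rap1b: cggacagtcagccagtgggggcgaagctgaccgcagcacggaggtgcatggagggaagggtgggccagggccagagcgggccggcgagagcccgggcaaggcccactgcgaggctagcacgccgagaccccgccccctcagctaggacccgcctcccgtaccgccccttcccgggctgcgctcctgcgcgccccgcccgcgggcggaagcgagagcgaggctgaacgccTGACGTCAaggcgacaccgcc
The Rap1b window held 1 full element, which began 21 bases before the start. The Rapgef4 window held neither form in these letters. Of 33469 RefSeq promoter windows of this length, 1.59% held the full element and 18.2% the short form. Windows were found for 9 of the 10 member genes, 10 in all, and the only other one with a match was that of Prkaca, with the short form at 193 and 79 bases before its start. A match describes the sequence and does not show that a factor binds.

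In limma's fit of 9387 probe sets, 13 of the 16 members had a mean of 4 or more and were included. An adjusted p (Benjamini-Hochberg) below 0.05 was reached by 0% of probe sets, and by 0 of the 13 members. An unadjusted p below 0.05 was found for 13.1% of probe sets and for 2 of the 13 members. One of these was lower in learning rats (Rapgef4, against 6.67% of all probe sets) and the other higher (Rap1b, against 6.43%). Groups that did not overlap at all were found lower in learning rats for 0.234% of probe sets, higher for 0.17%, and for 0 of the 13 members. Since the contrast was in view when the genes were chosen, nothing is read from these counts.

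Rapgef4, the neuronal cAMP sensor Epac2, was represented by probe set 1371081_at. Its lowest, median and highest values were 8.62, 9.17 and 9.41 in control rats and 8.26, 8.40 and 8.64 in learning rats. The groups barely touched: 6 of the 7 learning arrays lay below every control array, and the seventh exceeded the lowest control array by 0.02. Control rats were the more spread, with 4 arrays at 9.17 or above and the other 3 at 8.89 or below. The split followed replicate number: the 4 were replicates 1 to 4 and the 3 were replicates 5 to 7. No batch is labelled, and whether the split reflects the order of the arrays was not tested. The means were 9.07 ± 0.31 (SD, n = 7) for control and 8.44 ± 0.16 (SD, n = 7) for learning rats. The difference was -0.63 ± 0.12 log2 units (SE), or 1.55-fold, the 13th largest in size among the 9387. Rapgef4 was selected for this difference, so nothing is read from its rank. No learning rat reached the 4 higher control rats.

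Rapgef3, the other Epac gene, did not pass the filter. Its probe set 1368660_at gave 3.69 to 3.92 in control and 3.66 to 3.83 in learning rats, all below the array medians. The groups overlapped, and no fold is drawn from values this low.

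Rap1b, a GTPase that the Epac proteins activate, differed the other way. On probe set 1387806_at its lowest, median and highest values were 8.70, 8.93 and 9.09 in control rats and 8.97, 9.09 and 9.35 in learning rats. The groups overlapped, with 4 of the 7 learning arrays above every control array. The means were 8.91 ± 0.12 (SD, n = 7) and 9.11 ± 0.13 (SD, n = 7), and the difference was 0.20 ± 0.070 (SE) or 1.15-fold.

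Rap1a, its close paralog, overlapped widely between the groups. On probe set 1388615_at the lowest, median and highest values were 8.99, 9.09 and 9.40 in control and 8.83, 9.03 and 9.37 in learning rats. The difference was -0.047 ± 0.085 (SE), smaller than its error. A second Rap1a probe set, 1390201_at, gave 4.01 to 4.19 over all arrays, close to the filter, and differed by -0.019 ± 0.040 (SE).

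**Figure D1:**
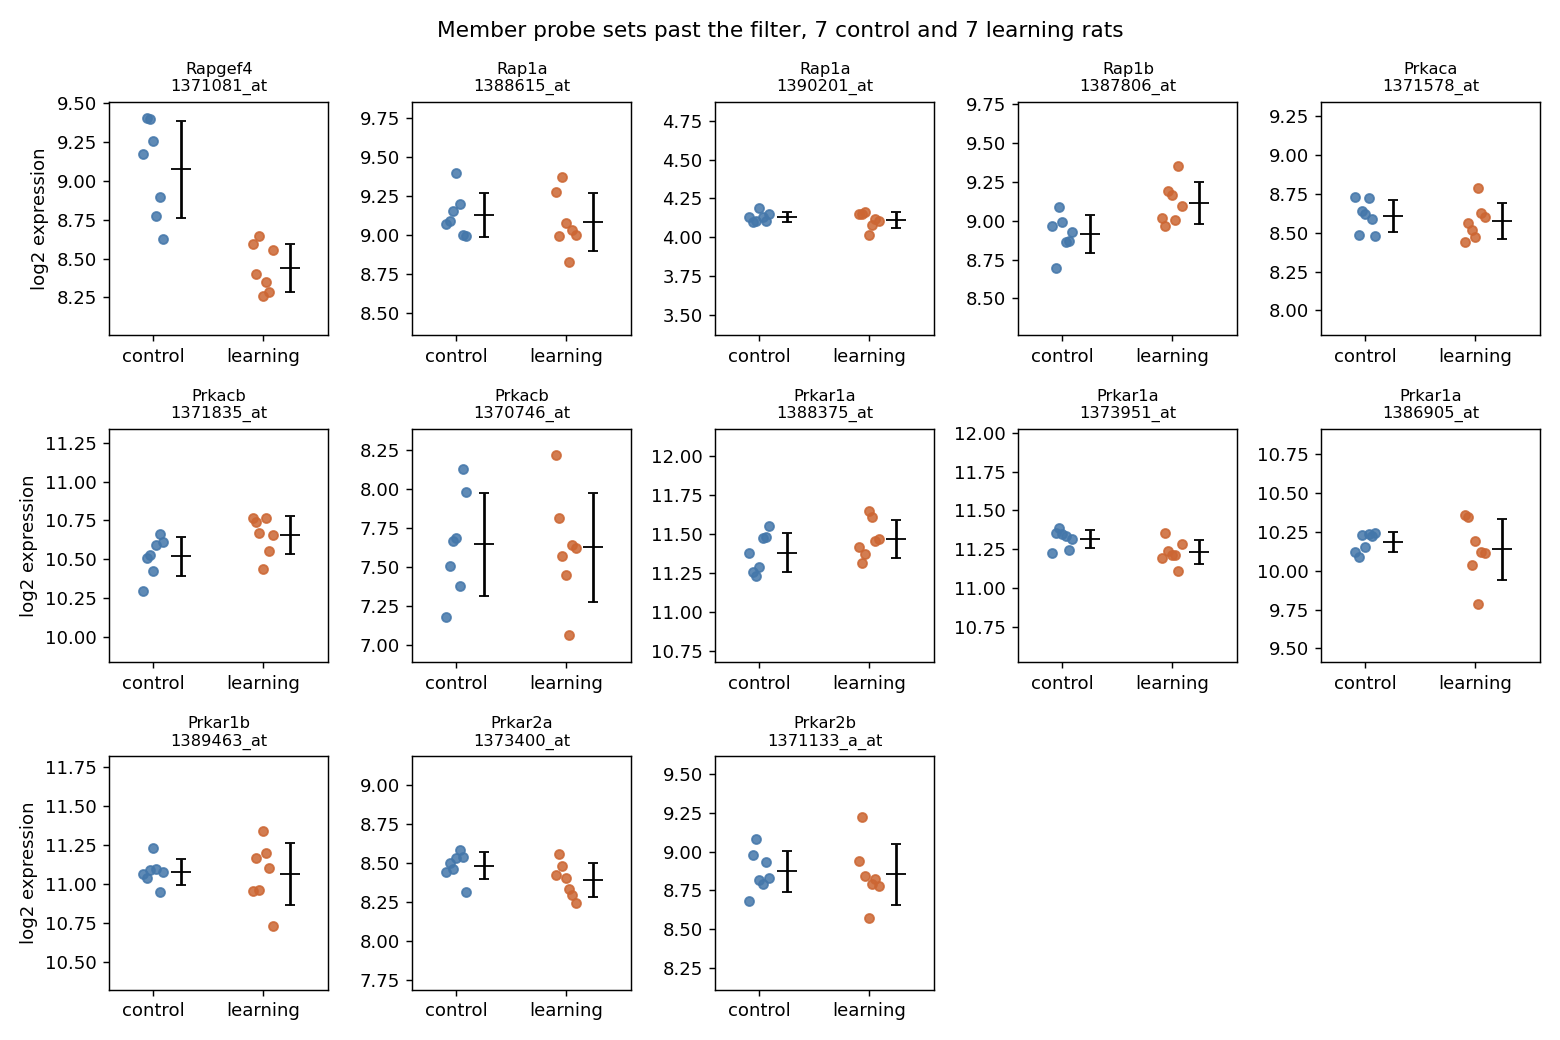
Log2 expression (y axis, each panel spanning 1.5 log2 units) of the 13 member probe sets past the filter in 7 control and 7 learning rats, 1 point per rat, with mean and SD as bars. Rapgef4 lies between 8.26 and 8.64 in learning rats and between 8.62 and 9.41 in control rats, while the other panels overlap more widely.

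Among catalytic subunits of protein kinase A, Prkacb (the beta subunit) had 2 probe sets that gave different estimates. On 1371835_at the lowest, median and highest values were 10.30, 10.53 and 10.66 in control and 10.44, 10.67 and 10.77 in learning rats. There 4 of the 7 learning arrays lay above every control array, and the difference was 0.14 ± 0.068 (SE). Its control values also split by replicate number, with replicates 1 to 4 at 10.53 or below and 5 to 7 at 10.59 or above. The other probe set, 1370746_at, had an SD of 0.33 in control and 0.35 in learning rats, a spread within groups above that of 94.8% of all probe sets, and differed by -0.020 ± 0.17 (SE). Its error spans the estimate of the first. Prkaca, the alpha subunit, ran from 8.48 to 8.73 and from 8.44 to 8.79 in the same order of groups, and differed by -0.036 ± 0.062 (SE).

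Type I regulatory subunits were covered by 4 probe sets. For Prkar1a, the alpha subunit, the sign depended on the probe set. The difference was 0.089 ± 0.068 (SE) on 1388375_at, where control rats ran from 11.23 to 11.55 and learning rats from 11.31 to 11.65. It was -0.086 ± 0.047 (SE) on 1373951_at, where 4 of the 7 learning arrays lay below every control array. On 1386905_at it was -0.047 ± 0.077 (SE), and learning rats were more spread than control rats, with an SD of 0.19 against 0.063. Prkar1b, the type I subunit found mainly in the nervous system, showed a like spread, with an SD of 0.20 in learning and 0.084 in control rats, and differed by -0.013 ± 0.081 (SE). Whether the spreads differ was not tested.

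Type II regulatory subunits, the ones that most anchoring proteins bind, overlapped between the groups. Prkar2a, the alpha subunit, gave 8.32 to 8.58 in control and 8.24 to 8.56 in learning rats on 1373400_at, a difference of -0.092 ± 0.058 (SE). Its other probe sets did not pass the filter: 1371059_at ran from 3.09 to 3.75 over all arrays and 1375620_at from 1.56 to 1.59. Prkar2b, the beta subunit, gave 8.68 to 9.08 in control and 8.57 to 9.22 in learning rats, a difference of -0.020 ± 0.087 (SE).

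**Figure D2:**
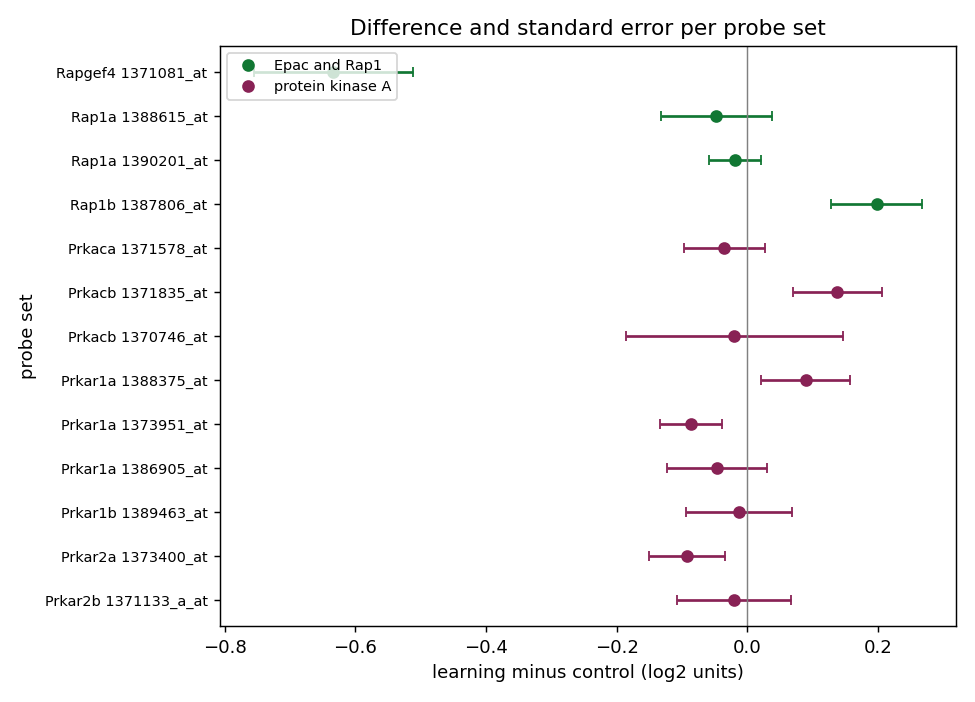
Learning minus control difference in log2 units (x axis) with its SE for each of the 13 tested probe sets (y axis), coloured by arm. Rapgef4 stands at -0.63 and Rap1b at 0.20, and the 9 protein kinase A probe sets lie between -0.092 and 0.14.

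The 4 Epac and Rap1 probe sets past the filter ran from -0.63 to 0.20, with a median difference of -0.033. The lower end is Rapgef4, which was selected for its difference, and the other 3 ran from -0.047 to 0.20, so the ranges of the arms are not compared. The 9 protein kinase A probe sets ran from -0.092 to 0.14, with a median of -0.020 and a median absolute difference of 0.047. Over all 9387 probe sets the median difference was 0.0050 and the median absolute difference 0.082. Of the 13 members, 10 were lower in learning rats, against 48.3% of all tested probe sets. The 10 include Rapgef4, selected for its difference, and more than 1 probe set each of Rap1a and Prkar1a. Without Rapgef4 it was 9 of 12, and nothing is read from these counts.

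Averaging 1 probe set per gene in each rat gave the mean log2 level of an arm. The Epac and Rap1 mean, over 3 genes, ran from 8.85 to 9.21 in control and from 8.73 to 9.07 in learning rats, a difference of -0.16. Without Rapgef4 the mean of Rap1a and Rap1b differed by 0.075, so the sign of the arm turned when that gene was left out. The mean with Rapgef4 differed by -0.050 with the granule cell and by -0.050 with the microglial marker mean as a covariate, fits added after the data had been seen. The protein kinase A mean, over 6 genes, ran from 9.77 to 9.88 and from 9.75 to 9.93, a difference of 0.011, whose sign turned under some alternatives.

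**Figure D3:**
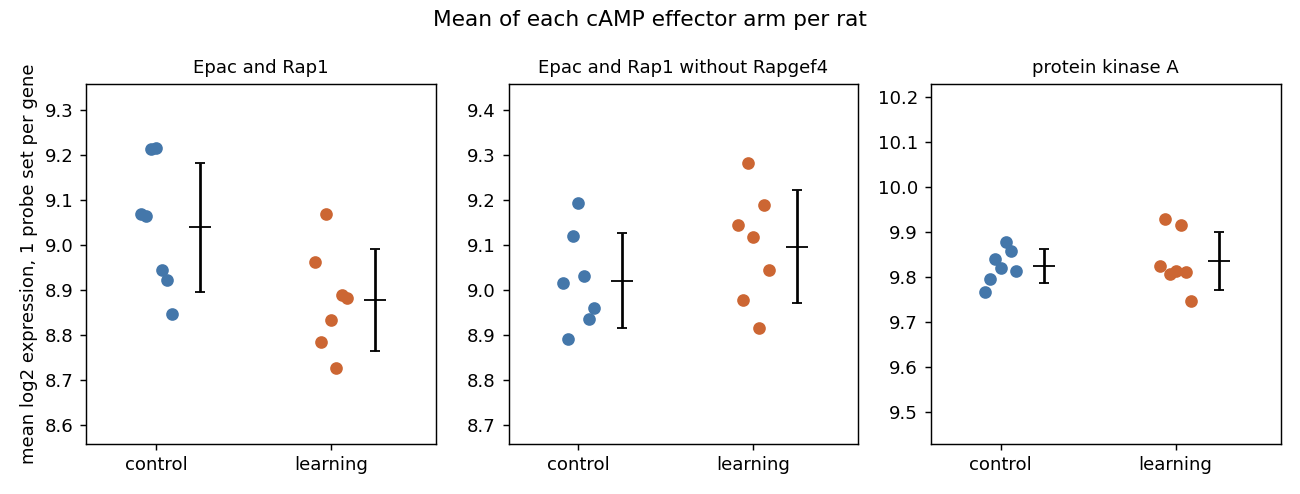
Mean log2 expression of each arm per rat (y axis, each panel spanning 0.8 log2 units), with 1 probe set per gene, 1 point per rat, and mean and SD of each group as bars. The Epac and Rap1 mean differs by -0.16, by 0.075 once Rapgef4 is left out, and the protein kinase A mean differs by 0.011.

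Cell type markers that moved with the groups are set beside the Rapgef4 difference, since in bulk tissue fewer cells of a type and less RNA per cell cannot be told apart. The mean of the granule cell markers past the filter (4 of 6 on the array, with Pdzd2 and Tdo2 below it) ran from 9.17 to 9.47 in control and from 9.37 to 9.59 in learning rats. Its members were unequal: Calb1 differed by -0.029 and Prox1 by 0.076, while Sema5a differed by 0.29 and Dsp by 0.44. With this mean as a covariate, a fit added after the data had been seen, the Rapgef4 difference was -0.31 ± 0.15 (SE), less than 0.5 of its size without the covariate. The Rap1b difference in that fit was 0.14 ± 0.11 (SE).

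Microglial markers (7 of 7 tested) ran from 7.37 to 7.90 in control and from 7.39 to 7.62 in learning rats. These 7 were unequal, with differences from -0.37 to 0.038, 6 lower and 1 higher. The microglial markers of highest mean, Ctss and Csf1r, differed by -0.024 and -0.056. With the microglial mean as a covariate the Rapgef4 difference was -0.45 ± 0.12 (SE). Choroid plexus markers (2 of 6, Ttr and Enpp2) ran from 6.67 to 7.98 and from 6.34 to 6.61, and Folr1, Kcnj13, Kl and Sostdc1 of that list were below the filter. Ttr differed by -1.78 and Enpp2 by -0.040, so the shift of that mean was that of 1 gene. The fit with their mean gave -0.71 ± 0.20 (SE), farther from 0 than without it. CA1 markers (6 of 7, Pou3f1 below the filter) ran from 6.65 to 7.67 and from 7.17 to 7.59, and their fit gave -0.57 ± 0.15 (SE). These 6 were unequal, with differences from -0.048 to 0.95 and 5 of them higher. The CA1 markers of highest mean, Itpka and Lmo3, differed by -0.048 and 0.0025. Meningeal markers (7 of 8, Lum below the filter) ran from 5.34 to 8.30 and from 5.11 to 8.25, and their fit gave -0.61 ± 0.12 (SE). The means of CA3, mossy cell, interneuron, astrocyte, oligodendrocyte, endothelial and blood markers differed by -0.16 to 0.023. Single markers could differ more than such a mean: those of CA3 ran from -0.27 to 0.29, 3 higher and 2 lower. The sign of the Rapgef4 difference was negative in each fit, and the value nearest to 0 was that with the granule cell markers.

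**Figure D4:**
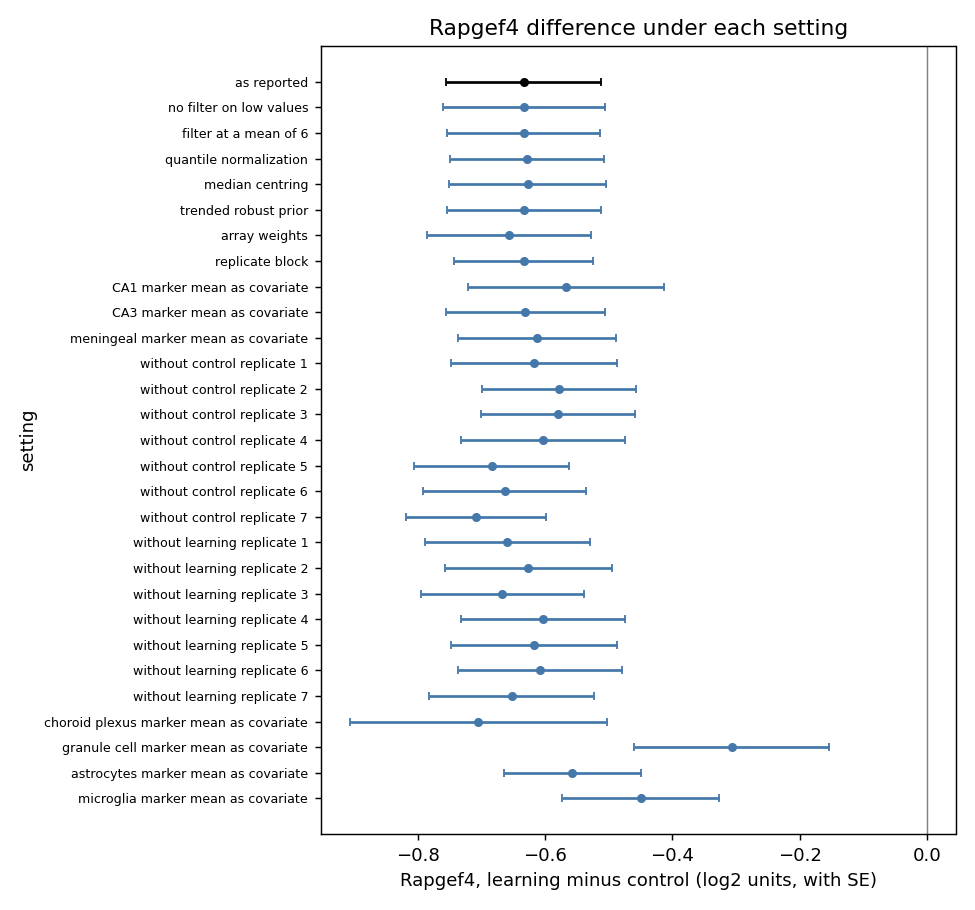
Rapgef4 learning minus control difference in log2 units with its SE (x axis) as reported and under 28 other settings (y axis). The estimates lie between -0.71 and -0.31, and the value nearest to 0 is the fit with the granule cell marker mean as covariate.

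Variation among rats of 1 group was not used to choose the genes. It was compared between Rapgef4 and 8 other members and 12 marker lists over the 14 arrays, with group means removed and two-sided permutation within groups, 20 relations in all. The clearest was with Prkar1a on probe set 1388375_at: rats with more Rapgef4 signal had less of it. Pearson's r was -0.81 (permutation p = 0.00117) and Spearman's rho -0.78 (permutation p = 0.00172). The adjusted p values for r were 0.0234 over the 20 relations and 0.339 when all 6696 other tested genes were compared with Rapgef4. In that wider comparison 0 genes passed an adjusted p of 0.05, and 460 had an unadjusted permutation p below 0.05.

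The relation held on 1 of 3 Prkar1a probe sets. Within control rats r was -0.98 on 1388375_at (exact permutation p = 0.000794, n = 7), over arrays with a gap between the 3 lower and the 4 higher Rapgef4 values. On this Prkar1a probe set control replicates 1 to 4 ran from 11.23 to 11.38 and replicates 5 to 7 from 11.47 to 11.55. Both genes thus split by replicate number. So did Prkacb on 1371835_at, with 10.30 to 10.53 in control replicates 1 to 4 and 10.59 to 10.66 in replicates 5 to 7. The permutation treats arrays of a group as exchangeable, and an effect of array order was not tested. Within learning rats r on 1388375_at was -0.57 (exact permutation p = 0.198, n = 7), and whether the groups differ in r was not tested. Without control replicates 2 and 3, the arrays farthest from the Rapgef4 median, r over both groups was -0.72. On 1373951_at r was 0.28 (permutation p = 0.299), and on 1386905_at it was -0.12 (permutation p = 0.600).

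**Figure D5:**
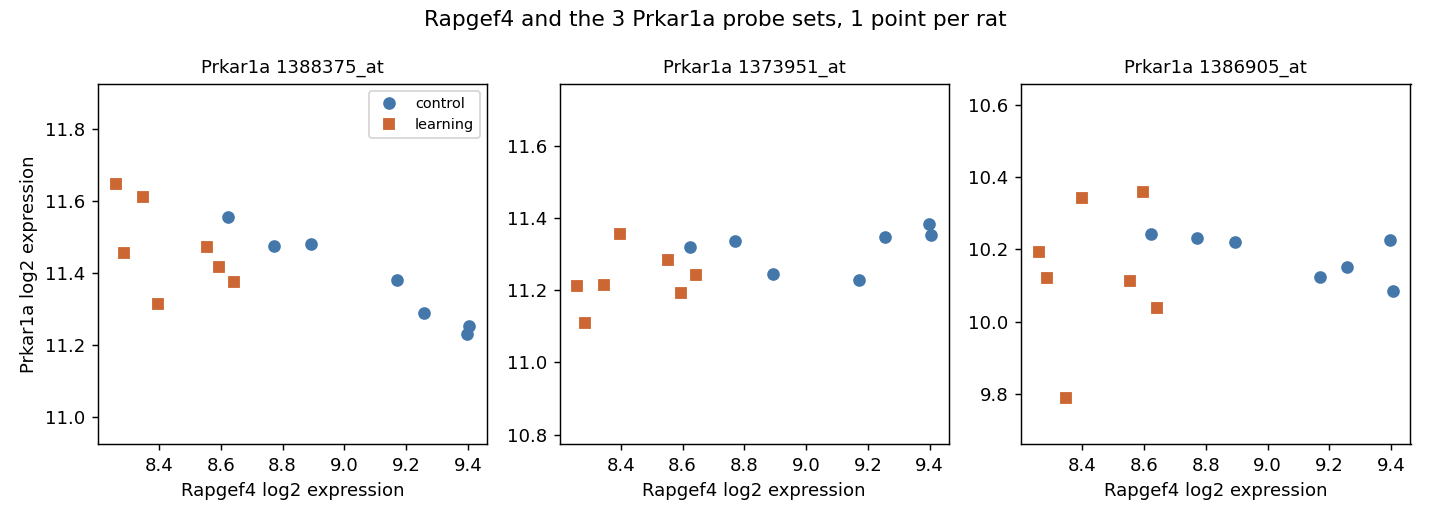
Log2 expression of each Prkar1a probe set (y axes, each spanning 1 log2 unit) against that of Rapgef4 (x axis), 1 point per rat, circles for control and squares for learning. Pearson's r with group means removed is -0.81 on 1388375_at, 0.28 on 1373951_at and -0.12 on 1386905_at.

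Of the GTPases downstream of Epac2, Rap1a had r of 0.45 with Rapgef4 (permutation p = 0.0883, adjusted p = 0.353) and rho of 0.49 (permutation p = 0.0865, adjusted p = 0.321). Rap1b had r of -0.027 and rho of 0.042, and its values did not follow those of Rapgef4 in either measure. The other protein kinase A subunits lay between r of -0.25 for Prkar1b and 0.31 for Prkar2b, with adjusted p values for r of at least 0.779. Prkar2b had rho of 0.48 (permutation p = 0.0963, adjusted p = 0.321), close to that of Rap1a. Without control replicates 2 and 3 the r of Prkar2b was 0.035. For Prkar1b the value within learning rats was -0.80 (exact permutation p = 0.0331, n = 7, unadjusted) and within control rats 0.24 (exact permutation p = 0.620, n = 7).

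Among the marker lists, none reached an adjusted permutation p of 0.05. The granule cell mean had r of -0.63 with Rapgef4 (permutation p = 0.0241, adjusted p = 0.241) and rho of -0.53 (permutation p = 0.0657, adjusted p = 0.321). Astrocyte markers had r of 0.59 (adjusted permutation p = 0.342) and microglial markers 0.60 (adjusted permutation p = 0.342). Oligodendrocyte markers had r of 0.10 on all arrays and 0.82 without control replicates 2 and 3, so the value depended on those arrays.

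Probe sets of 1 gene did not track each other closely from rat to rat. With group means removed, r was 0.52 for the Rap1a pair (permutation p = 0.0883), 0.47 for the Prkacb pair (permutation p = 0.103) and between -0.44 and 0.20 for the 3 pairs of Prkar1a probe sets. Adjusted permutation p values over these 5 pairs were at least 0.212. The Prkar1a value of -0.44 was that of 1388375_at with 1373951_at.

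The genes whose values most resembled those of Rapgef4 from rat to rat are named by r with group means removed, over 14 arrays that share their tissue and processing. The 5 highest of 6696 were Rabggtb, a subunit of the enzyme that prenylates Rab proteins, at 0.89, Pdcd5 at 0.88, the astrocyte water channel Aqp4 (also 1 of the astrocyte markers) at 0.87, the eIF2alpha kinase Eif2ak1 at 0.86 and Serinc1 at 0.85. Their learning minus control differences lay between -0.29 and -0.066. The 5 lowest were Mybpc3 at -0.85, Ufsp1 at -0.81, Prkar1a at -0.81, the transcription activator Camta2 at -0.80 and Ppp2r2c, a regulatory subunit of protein phosphatase 2A, at -0.80. The central 90% of all genes lay between -0.49 and 0.50.

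The surrounding pathway was followed in 7 lists with 89 genes on the array, of which 67 were tested with 1 probe set each. Of the 67, 0 passed an adjusted p of 0.05 in limma, as did 0% of all 6697 genes, and the lowest adjusted p was 0.236. An unadjusted p below 0.05 was found for 10 of the 67, with 6 higher and 4 lower in learning rats, against 12.6% of all genes. In all 39 of the 67 had lower means in learning rats, against 49.4% of all genes, and the median difference was -0.017 against 0.0018. The same 49.4% stands beside the count of lower means in each list below.

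Regulators of Rap form the first lists. The 5 other Rap exchange factors tested (8 on the array) ran from -0.0043 to 0.24. Of the 5, 4 had higher means in learning rats, as did 3386 of all 6697 genes. Rapgef5, an exchange factor for Rap, differed by 0.24 ± 0.076 (SE, adjusted p = 0.241 in limma). Rapgef2 differed by 0.075, and Rasgrp2, which responds to calcium and diacylglycerol, by 0.052, with -0.13 on a probe set below the filter. The 4 GTPase-activating proteins tested (6 on the array), which turn Rap off, all had lower means in learning rats, with a median difference of -0.058, and 0 of them had an unadjusted p below 0.05. They included Rap1gap at -0.054 ± 0.055 (SE), Rasa3 at -0.13 ± 0.14 (SE) and Sipa1l2 at -0.062 ± 0.070 (SE). Each of the 4 differences was smaller than its error, and 49.4% of all genes had lower means.

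The list of Rap paralogs and effectors gave 5 higher and 8 lower means among the 13 tested (15 on the array). Their median difference was -0.016, and no Rap paralog was among the 13. The list also counts adhesion proteins such as Itgb1. Tiam1, an exchange factor for Rac that acts downstream of Rap1, differed by -0.33 ± 0.16 (SE, adjusted p = 0.382 in limma). Afdn, the junction scaffold afadin, differed by 0.19, with -0.038 on a second tested probe set. Itgb1, the beta1 integrin subunit, differed by -0.19 on one probe set and by 0.034 on the other.

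A-kinase anchoring proteins tether protein kinase A to sites in the cell. Of the 17 tested (20 on the array), 11 had lower and 6 higher means in learning rats, against 49.4% lower among all genes. An unadjusted p below 0.05 in limma was found for 3 of the 17, against 12.6% of all genes. Nothing is read from these counts. The median difference of the list was -0.097. Akap7 differed by 0.25 ± 0.077 (SE), and its adjusted p in limma was 0.236. Map2, a dendritic microtubule protein that binds type II subunits, differed by -0.15 ± 0.062 (SE) and by 0.072 on another probe set. Akap1, the mitochondrial anchor, differed by -0.15 ± 0.064 (SE).

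Inhibitors and related kinases numbered 5 tested (6 on the array), 2 with higher and 3 with lower means in learning rats, and a median difference of -0.014. Among the higher was Prkaa1 at 0.071 ± 0.15 (SE), a catalytic subunit of AMP-activated protein kinase and not of protein kinase A. Pkia, which encodes a peptide inhibitor of the catalytic subunit, differed by 0.096 on its probe set of highest mean and by 0.40 ± 0.15 (SE) and 0.31 on the others, the same sign on all 3. Pkib, another inhibitor gene, differed by -0.056 and 0.12, and the related kinase Prkx by -0.050.

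Substrates of the kinase gave 10 higher and 12 lower means among 22 tested (24 on the array), with a median difference of -0.028. The IP3 receptor Itpr1 differed by 0.22 ± 0.070 (SE) and the cAMP-response factor Crem by 0.22 ± 0.075 (SE), with 0.099 on a second tested probe set, while the AMPA receptor subunit Gria1 differed by -0.45 ± 0.16 (SE). Their adjusted p values in limma were 0.238, 0.251 and 0.280. Of 10 other cAMP-binding proteins on the array only Cngb1, a subunit of channels gated by cyclic nucleotides, was tested, and it differed by 0.18 ± 0.064 (SE).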

How the data were processed

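Dentate gyrus RNA of 14 rats was hybridised to Affymetrix RAE230A arrays, per the labels' protocols. The authors deposited log2 expression per probe set; the submitters' processing notes name GCRMA, with version and settings not given in the sources used here. Titles gave groups and replicate numbers, and no batch is labelled.

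Control probe sets (57) were left out, and tests used probe sets whose mean was 4 or more. The platform annotation listed 1 symbol for 12783 probe sets, several for 312 and none for 2771. For counts of genes, the probe set of highest mean stood for its gene. Learning minus control was fitted over all tested probe sets with limma 3.58.1 (lmFit, eBayes) in R 4.3.3, without covariates, with Benjamini-Hochberg adjustment at 0.05. Correlations used 100000 permutations, whose smallest possible p is 1e-05. Both were tested on simulated data.

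Members and lists were chosen with earlier results of these data known. Named were all members, the 3 genes of smallest p per pathway list and the 5 genes at either end of r with Rapgef4. Prkaa1 was named to describe what its list holds. Of marker lists the 2 genes of highest mean were named; the other tested markers of granule cells, Sema5a and Dsp, were named after their values were seen. Promoters are RefSeq's (GRCr8). Figures used matplotlib 3.10.9. Alternatives were filters, normalizations, priors, array weights, the replicate block, marker means as covariates and each array left out in turn.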

Additional observations from a re-analysis of the deposited data

Results flagged for a closer look

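Prkar2a probe set 1371059_at stood at 3.75 in learning replicate 1, while the other 6 learning rats lay between 3.09 and 3.36. The gap to the nearest value was 0.591 of the range of the group, above the 95% critical value of Dixon's test for 7 samples. It was the only such value in 32 groups checked (16 probe sets in 2 groups), and chance marks about 1 in 20 groups. The probe set is below the filter on low values and enters no count.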

How the results depend on the processing

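The Rapgef4 difference was negative under every setting run, from -0.71 to -0.31 over 14 alternatives and from -0.71 to -0.58 with each array left out in turn. The granule cell marker mean as covariate gave the value nearest to 0 and left 284 probe sets and 0 members at an unadjusted p below 0.05. With the choroid plexus mean these counts were 777 and 1, and with the microglial mean 490 probe sets. These 3 covariates and the astrocyte mean were chosen after the data had been seen, and the cause was not tested. Probe sets past the adjusted threshold numbered 0 to 1 with each array left out, with 1 without control replicate 6, learning replicate 1 or learning replicate 4. Members at an unadjusted p below 0.05 then numbered 2 to 4, with 4 without learning replicate 2. The deviations of same-numbered rats correlated with r from -0.28 to 0.26, and 4 of the 7 numbers had their best match in the same number, a hint from the data. The labels tie no numbers together and r was not over 0.1 for every number, so the numbers were not taken as pairs. With the replicate block the Rapgef4 difference was -0.63, and 0 of all tested probe sets passed the adjusted threshold in limma.

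Other signs turned only for values reported within 0.1 of 0, though some moved farther under an alternative. With each array left out, Prkacb on 1370746_at ran from -0.12 to 0.073, Prkar1a on 1386905_at from -0.084 to 0.012, Prkar1b from -0.059 to 0.043 and Prkar2b from -0.082 to 0.026. With the CA1 mean as covariate Prkacb on 1370746_at was at 0.19 and Prkar1b at 0.0024. Prkar1b was at 0.00071 with the meningeal, 0.077 with the choroid plexus, 0.018 with the astrocyte and 0.059 with the microglial mean. With the choroid plexus mean Prkar1a on 1386905_at was at 0.0048 and Prkar2b at 0.060. With the granule cell mean Rap1a on 1388615_at was at 0.013, Prkar1a on 1388375_at at -0.045 and Prkar2b at 0.065. Rap1a was at 0.0020 with the astrocyte and 0.063 with the microglial mean. The protein kinase A mean was at -0.0056 with the CA1 and -0.0084 with the microglial mean, at -0.0045 without learning replicate 2 and at -0.0024 without learning replicate 5. The r of Rapgef4 with Rap1b was 0.0040 after quantile normalization and 0.053 without the 2 farthest arrays, where that with Prkaca was 0.070. The cause was not tested. Rapgef3 and 2 Prkar2a probe sets were too near background to compare, and the number of arrays limits the rest.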
